A study of Triticum aestivum with 6 samples.

Results

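The NPF6.3-like genes of bread wheat (Triticum aestivum) are the genes whose best protein match carries the name NRT1/PTR family 6.3, the nitrate transporter and nitrate sensor also known as NRT1.1. They were chosen by that name alone, in the protein description the authors deposited with each gene, and 10 of the 83219 genes in the table had it. For all 10 the match was the protein of Arabidopsis, so the name stands for similarity and not for a function measured in wheat. The samples were roots of wild-type JW1 seedlings, 3 libraries per group. Both groups had germinated for 3 days, lost their endosperm, grown for 3 days at 2 mM nitrate and then spent 2 days without nitrogen. In the last 3 hours one group (0N) received 2 mM KCl and the other (2N) 2 mM of a potassium salt that the labels write as KNO and class as nitrate. Nitrate and chloride thus changed together and cannot be told apart. Whether the replicates came from separate plants or cultures is not given in the labels. The p-values therefore describe the spread between these 6 libraries, which may be technical.

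NPF proteins sit in membranes and carry nitrate, peptides, hormones or other small molecules. In Arabidopsis, NPF6.3 takes up nitrate with either low or high affinity, and the kinase CIPK23, bound to a calcium sensor of the CBL family, switches between these modes by phosphorylation. The same protein reports external nitrate to the cell, which sets off transcription of nitrate transporters and reductases, and it also moves auxin in young lateral roots. In bread wheat, a hexaploid, most genes occur in copies on the A, B and D chromosomes.

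Libraries held 16208512 to 17645686 estimated reads. The tissue was checked because a second label reads leaf tissue. Of 28 genes matching root markers, 27 had reads, with a summed level of 635 to 797 TPM, a measure of transcript abundance scaled for gene length and library total. Of 86 genes matching chlorophyll-binding proteins and the small subunit of Rubisco, 69 had reads, and their sum was 163 to 382 TPM in 0N and 83.7 to 162 TPM in 2N. These leaf-type transcripts were thus higher in every 0N library, by a narrow margin between the closest 2, and their part in the results was not tested. In roots sampled as bulk tissue, fewer cells of a type and less RNA per cell cannot be told apart.

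Of the members, 6 lie in pairs with adjoining identifier numbers, a pair on each of 1A, 1B and 1D. In wheat identifiers the numbers run along the chromosome, so the gene with the lower number is called the first gene here and the other the second. The first genes are TraesCS1A02G210900, TraesCS1B02G224900 and TraesCS1D02G214200, and the second genes are TraesCS1A02G211000, TraesCS1B02G225000 and TraesCS1D02G214300. The remaining members are TraesCS7D02G297000, TraesCS5A02G537100, TraesCS4B02G375800 and TraesCS4B02G371000. Of the 10, 9 passed the filter on low counts. TraesCS1B02G224900 passed it on its 2N libraries alone, so its presence among the tested members was tied to a high 2N level, and the counts over members below are a description.

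With nitrate, all 6 genes of the 3 pairs rose and the 7D gene fell, while the 5A gene and the better expressed 4B gene did not pass the threshold. The test was edgeR's quasi-likelihood test with Benjamini-Hochberg adjustment over 54313 genes and a threshold of 0.05. Among all tested genes, 7.57% rose and 7.93% fell. With TMM scaling these were 4109 rises and 4306 falls, and with scaling by library totals 2920 rises and 6208 falls. The members' 6 rises and 1 fall were called under every alternative listed in the closing section. Of the 9 tested members, 7 had groups that did not overlap in TPM, against 33.5% of all tested genes. The median log2 fold change was 1.52 over the 9 members and 0.00 over all tested genes.

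The first genes went from low levels to clear expression. On 1A, TraesCS1A02G210900 stood at 1.43, 0.39 and 0.72 TPM in the 0N libraries and at 8.74, 11.75 and 10.53 TPM in the 2N libraries. Every 2N value was several times the highest 0N value. The log2 fold change was 3.73 ± 0.30 (SE, n = 3 per group; edgeR adjusted p = 9.8e-05). Its size depended on the setting: limma-trend on log2(TPM + 1) gave 2.65, and without 0N replicate 1 it was 4.29.

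On 1B, TraesCS1B02G224900 had 18, 12 and 0 estimated reads in 0N, or 0.58, 0.37 and 0 TPM. A count of 0 allows up to 3 reads by counting error alone. In 2N it reached 10.93, 11.71 and 9.98 TPM. It was thus close to undetected in 0N and present in all 2N libraries, with a log2 fold change of 5.20 ± 0.46 (SE; edgeR adjusted p = 0.00082). Since so few reads stand behind the 0N level, the size of this rise depends on single libraries and on the pseudocount: without 0N replicate 3 it was 4.60, without 0N replicate 1 it was 5.92, and limma-trend on log2(TPM + 1) gave 3.20.

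On 1D, TraesCS1D02G214200 was the most abundant of the first genes in both groups. Its levels were 2.97, 3.12 and 1.54 TPM in 0N and 23.39, 27.44 and 31.66 TPM in 2N. The groups lay far apart, with a log2 fold change of 3.54 ± 0.24 (SE; edgeR adjusted p = 6.7e-05). Together the 3 first genes amounted to 3.71 ± 1.37 TPM in 0N and 48.7 ± 4.93 TPM in 2N (SD, n = 3), a ratio of the means of 13.1 (exact permutation p = 0.1, 2-sided). With 3 libraries against 3, 0.1 is the smallest p this test can give, also for the sums, shares and ratios that follow.

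**Figure D1:**
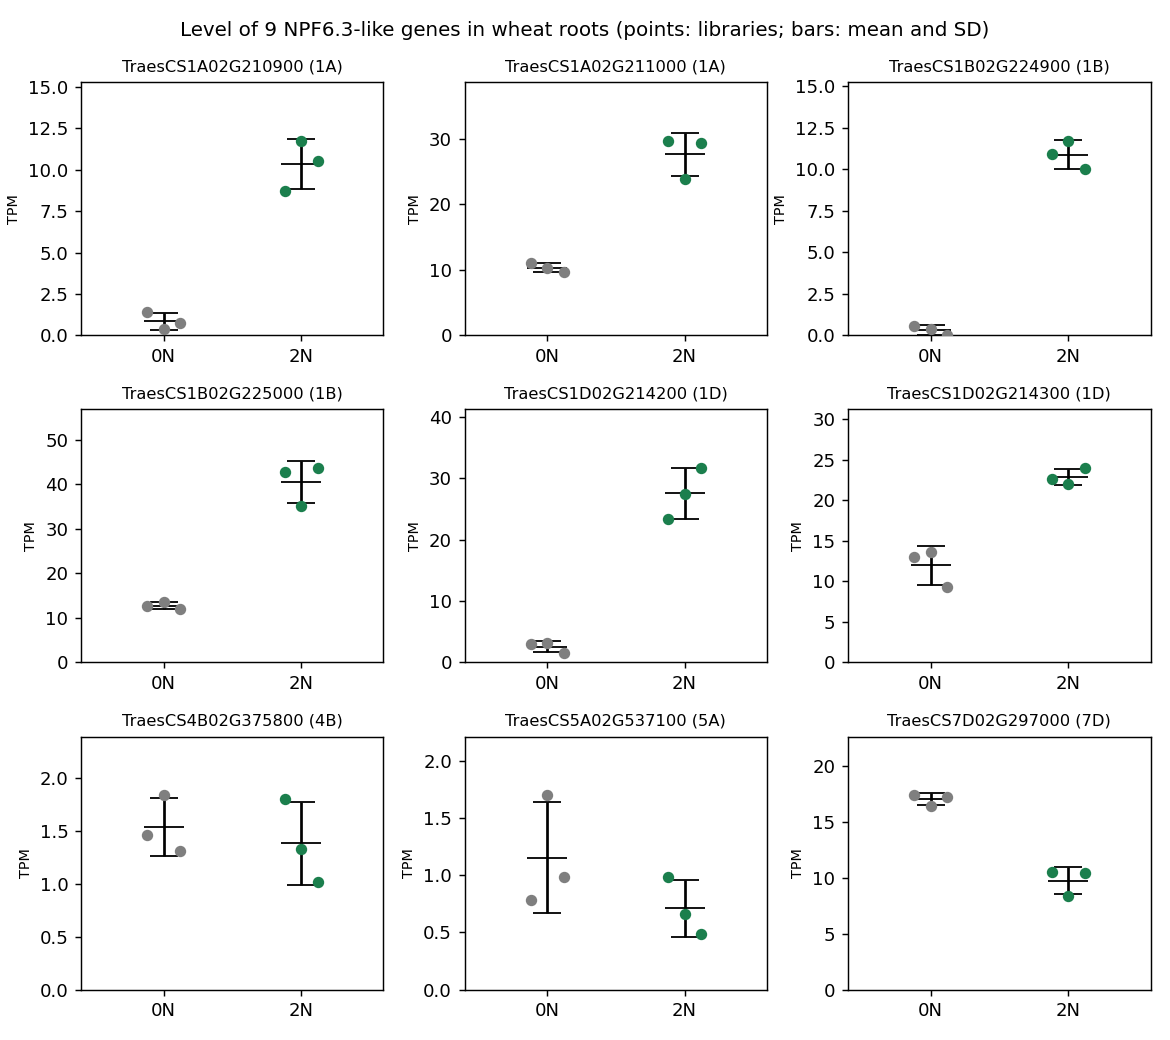
Level in TPM (vertical axis, starting at 0 and scaled separately in each panel) of the 9 tested NPF6.3-like genes in 0N and 2N. Points are libraries and bars show the mean and SD of 3; the 6 genes on 1A, 1B and 1D are higher in every 2N library, the 7D gene is lower, and the groups of the 4B and 5A genes overlap.

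The second genes were already expressed without nitrate and rose by smaller factors. TraesCS1B02G225000, the most abundant member over all libraries, stood at 12.61, 13.54 and 12.11 TPM in 0N and at 42.76, 35.04 and 43.67 TPM in 2N. Its log2 fold change of 1.77 ± 0.11 (SE; edgeR adjusted p = 1e-07) had the smallest p of the members. TraesCS1A02G211000 stood at 11.06, 10.23 and 9.7 TPM in 0N and at 29.68, 23.8 and 29.28 TPM in 2N. It rose by 1.52 ± 0.11 on the log2 scale (SE; edgeR adjusted p = 3.8e-07), again with no overlap.

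TraesCS1D02G214300 had the smallest rise of the 6. Its levels were 13.03, 13.67 and 9.25 TPM in 0N and 22.61, 21.96 and 23.97 TPM in 2N. The 0N values were spread more widely than the 2N values, and the log2 fold change was 1.03 ± 0.13 (SE; edgeR adjusted p = 0.00017). The 3 second genes summed to 35.1 ± 3.49 TPM in 0N and 90.9 ± 8.82 TPM in 2N (SD, n = 3), a ratio of the means of 2.59 (exact permutation p = 0.1).

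Whether first and second genes responded by different factors was asked with the log2 ratio of their TPM in each library, a comparison added after the levels had been seen. On 1D the ratio of first to second gene was -2.10, -2.10 and -2.51 in 0N and 0.05, 0.32 and 0.40 in 2N. The first gene was thus below its neighbour in all 0N libraries and slightly above it in all 2N libraries. On 1A the mean ratio moved from -3.61 ± 0.77 to -1.41 ± 0.37 and on 1B from -5.34 ± 1.42 to -1.88 ± 0.28 (SD, n = 3), so there the first gene stayed below the second in every library. The mean ratio was higher in 2N by 2.20 on 1A, 3.46 on 1B and 2.49 on 1D. In none of the 3 pairs did the groups overlap, and each exact permutation p was 0.1, also after adjustment over the 3. The ratios used a pseudocount of 0.1. With a pseudocount of 1 these differences were 1.32, 1.61 and 2.14, and that on 1B was 2.66 without 0N replicate 3.

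**Figure D2:**
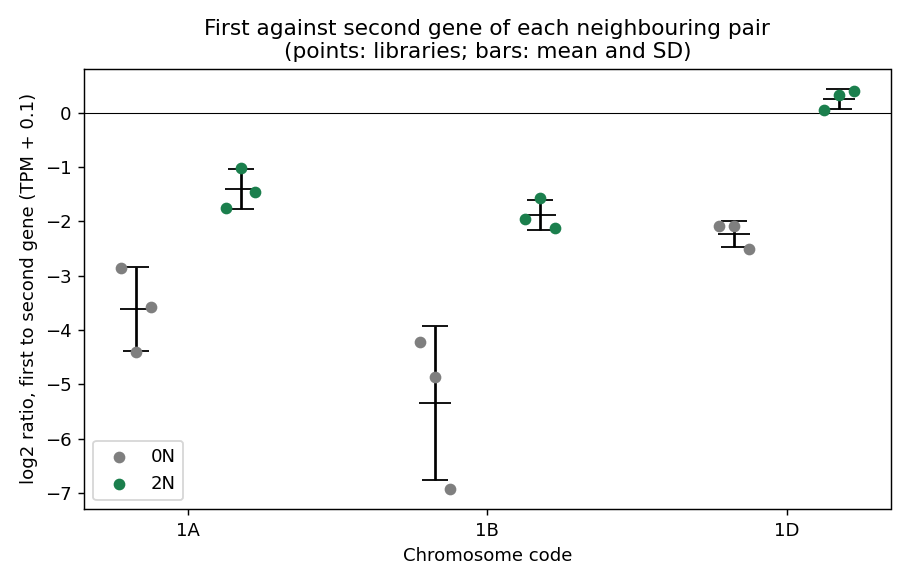
Log2 ratio of the first to the second gene of each neighbouring pair (vertical axis, TPM + 0.1) by chromosome code and group. Points are libraries and bars show the mean and SD of 3; all 2N points lie above the 0N points of the same chromosome, and only on 1D do they lie above 0, which marks equal levels.

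The copies of the second genes on the A, B and D chromosomes were compared with each other in the same way. Copies were matched by chromosome number and by order of the identifiers among the members, and not by sequence. The 1B copy was above the 1D copy by 0.82 ± 0.13 (log2 ratio, SD, n = 3) in 2N and by 0.11 ± 0.24 in 0N. The 1A copy was below the 1B copy by a log2 ratio of -0.55 ± 0.03 in 2N and -0.30 ± 0.11 in 0N. Against the 1D copy the 1A copy stood at -0.19 ± 0.24 in 0N and 0.27 ± 0.14 in 2N. Groups did not overlap in any of these 3 ratios. Each exact permutation p was 0.1, and 0.15 after adjustment over the 6 ratios between copies.

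Ratios among the first genes were less certain, because the 1A and 1B copies had few reads in 0N. The log2 ratio of the 1B copy to the 1D copy was -2.18, -2.78 and -4.04 in 0N and -1.09, -1.22 and -1.66 in 2N, without overlap (exact permutation p = 0.1, adjusted p = 0.15). The difference of 1.67 was 0.17 with a pseudocount of 1 and 1.15 without 0N replicate 3. The ratio of the 1A copy to the 1D copy differed between groups by 0.17 and that of the 1A copy to the 1B copy by -1.50, both with overlapping groups (exact permutation p = 1 and 0.2). The -1.50 was -0.69 without 0N replicate 3 and -0.55 with a pseudocount of 1. Summed per chromosome, the pair on 1A stood at 11.2 ± 1.14 TPM in 0N and 37.9 ± 2.17 TPM in 2N, and that on 1D at 14.5 ± 3.26 and 50.3 ± 4.88 TPM (SD, n = 3). The pair on 1B summed to 13.19, 13.91 and 12.11 TPM in 0N and to 53.69, 46.75 and 53.65 TPM in 2N.

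The 7D gene moved the other way. TraesCS7D02G297000 stood at 17.4, 16.39 and 17.23 TPM in 0N and at 10.49, 8.36 and 10.39 TPM in 2N. It was the most abundant member without nitrate and all its 2N values lay below its 0N values. The log2 fold change was -0.70 ± 0.11 (SE; edgeR adjusted p = 0.00035). No gene on 7A or 7B had the same best match, so no A or B copy was compared.

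The other members were weakly expressed. TraesCS4B02G375800 stood at 1.46, 1.84 and 1.31 TPM in 0N and at 1.8, 1.33 and 1.02 TPM in 2N, with a log2 fold change of -0.05 ± 0.23 (SE; edgeR adjusted p = 0.92). TraesCS5A02G537100 stood at 0.78, 1.7 and 0.98 TPM in 0N and at 0.98, 0.66 and 0.49 TPM in 2N, with a log2 fold change of -0.60 ± 0.34 (SE; edgeR adjusted p = 0.3). For both genes the groups overlapped, and intervals of this width do not show that the levels were equal. TraesCS4B02G371000 had 2 reads in 0N replicate 1 and 0 in the other libraries, and was not tested.

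The order of the members differed between the groups. In 0N the 7D gene came first, above the 3 second genes, which did not differ beyond their spread except that 1A lay below 1B. After a gap came the 1D first gene, then the 4B, 5A, 1A first and 1B first genes, each of which overlapped its neighbour in this order. In 2N the second gene of 1B came first, clear of all others. The 1A second gene, the 1D first gene and the 1D second gene followed, each overlapping the next. Below them the 1B first gene, the 1A first gene and the 7D gene formed a run of overlapping neighbours, and the 4B and 5A genes were lowest among those tested.

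Summed over all 10 members, the level was 61.39, 61.25 and 52.84 TPM in 0N and 151.38, 142.05 and 160.99 TPM in 2N. Every 2N library was above every 0N library, and the ratio of the means was 2.59 (exact permutation p = 0.1). The share of each gene in this sum was compared next. The first genes together made up 6.24% ± 1.92 in 0N and 32.2% ± 3.70 in 2N (SD, n = 3), and the 7D gene 29.2% ± 3.02 and 6.42% ± 0.52. The second genes together held 59.9% ± 1.18 and 60.0% ± 2.96. Within that sum the 1B second gene went from 21.9% ± 1.21 to 26.7% ± 1.83. The 1D second gene went from 20.3% ± 2.52 to 15.1% ± 0.32. The shares of the first genes and of the 7D gene did not overlap between groups (exact permutation p = 0.1, and 0.125 for single genes after adjustment over the 10 shares). The same held, with the same p, for the second genes of 1B and 1D, for TraesCS4B02G375800 and for TraesCS5A02G537100. The last 2 had lower shares in 2N. A share also falls when the sum rises. The share of the 1A second gene overlapped between groups.

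**Figure D3:**
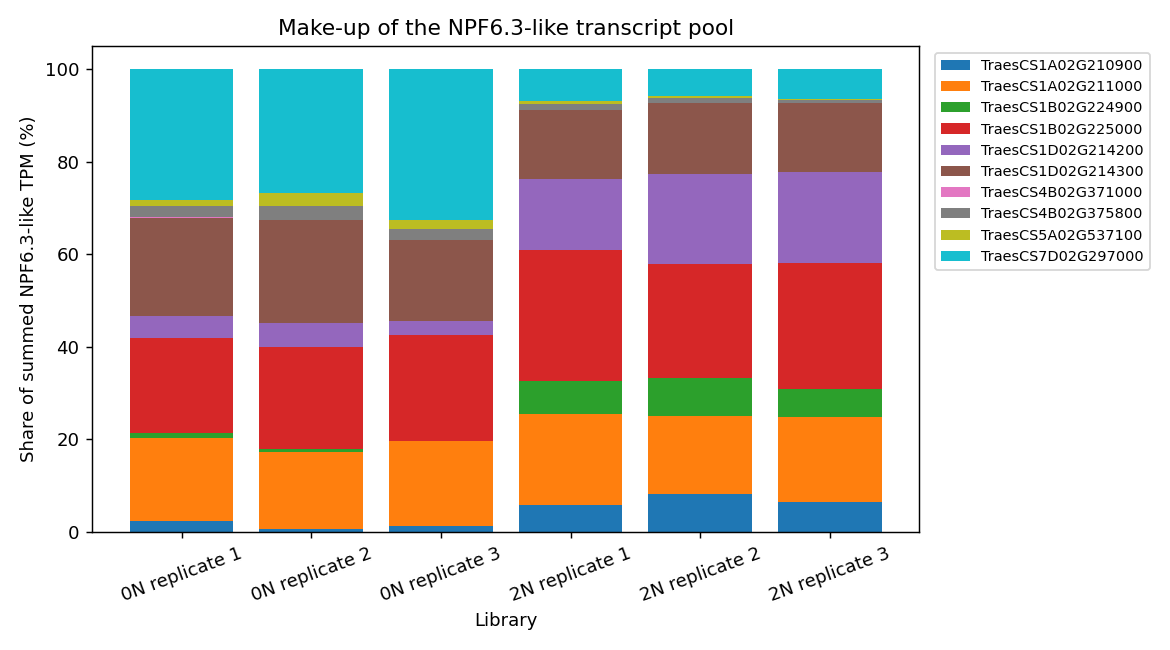
Share of each of the 10 NPF6.3-like genes in their summed TPM (vertical axis, percent) for the 6 libraries. Each bar is a library; the 7D gene takes 26.8% to 32.6% in 0N and 5.89% to 6.93% in 2N, and the 3 first genes widen from 4.28% to 8.11% in 0N to 28.4% to 35.8% in 2N.

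Reads of similar copies can be divided among genes, and the counts carry traces of this. The second genes had counts that were not whole numbers in all 6 libraries (tolerance 1e-06), and the 7D gene in 5. The first genes had whole counts in 4 (1A), 5 (1B) and 3 (1D) of 6 libraries, and the 4B and 5A genes in all 6. How far division of reads between copies changed their ratios was not tested. The labels do not call the libraries stranded, and reads of a gene that overlaps a member on the opposite strand would be counted with it.

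The closest relatives by name are other members of NPF subfamily 6. Of 14 genes matching NPF6.1, NPF6.2 or NPF6.4, 7 were tested, of which 1 fell and 6 did not pass the threshold, with a median log2 fold change of -0.18. Among all tested genes 7.93% fell, so 1 of 7 does not set this subfamily apart. The gene that fell was the NPF6.1-like TraesCS3B02G095900, from 8.66 ± 1.09 to 4.67 ± 0.15 TPM (SD, n = 3; log2 fold change -0.79 ± 0.13 SE, edgeR adjusted p = 0.00059). The difference between these relatives and the NPF6.3-like genes was not tested.

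Kinases and calcium sensors of nitrate signalling in Arabidopsis were taken by name alone, whatever the species of the matched protein. The genes need not be counterparts of the Arabidopsis proteins. All 3 genes matching CIPK23, the name of the Arabidopsis kinase that phosphorylates NPF6.3, fell, beside 7.93% of all tested genes. Their log2 fold changes were -1.08, -1.16 and -1.42. TraesCS2D02G252600 among them stood at 29.42, 27.63 and 23.75 TPM in 0N and at 10.91, 8.48 and 8.7 TPM in 2N, without overlap (edgeR adjusted p = 1.9e-06). The 4 other kinases tested, matching CIPK8 and calcium-dependent protein kinase 10, did not pass. Of 8 tested genes matching the calcium sensors CBL1 and CBL9, 1 rose, the CBL9-like TraesCS3B02G064500 with a log2 fold change of 0.49 ± 0.13 (SE, edgeR adjusted p = 0.015). With 7.57% of all tested genes rising, 1 of 8 does not set this list apart.

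Regulators that act downstream of nitrate sensing moved in both directions. The counts that follow stand beside 7.57% of all tested genes that rose and 7.93% that fell. Of 20 genes matching NLP transcription factors, which in Arabidopsis drive nitrate-responsive transcription, 3 rose and 7 fell. By name, 6 of 8 NLP1-like and 1 of 6 NLP2-like genes fell, while 2 of 5 NLP3-like genes and the 1 NLP7-like gene rose. The NLP1-like TraesCS5A02G497800 among the falls went from 6.85 ± 0.78 to 3.42 ± 0.26 TPM (SD, n = 3). Of 6 genes matching LBD37 or LBD39, repressors of nitrogen-responsive genes in Arabidopsis, 3 rose, all LBD39-like. TraesCS4D02G077600 among them went from 0.67 ± 0.30 to 24.2 ± 4.15 TPM, and passed the filter on its 2N libraries alone. Of 7 genes of the GARP repressors HHO and NIGT1, 3 rose, 1 HHO3-like and 2 HHO5-like. The 3 NIGT1-like genes did not pass the threshold. The rises were led by the HHO5-like TraesCS5D02G411800 with a log2 fold change of 2.40 ± 0.13 (SE; edgeR adjusted p = 5.8e-08).

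Root growth factors were also listed. Of 17 genes similar to the auxin receptor TIR1, 5 rose and 1 fell, beside 7.57% and 7.93% of all tested genes. Among the rises, TraesCS4D02G301800 went from 5.28 ± 0.64 to 13.9 ± 1.02 TPM (SD, n = 3; edgeR adjusted p = 6.8e-07). Of 6 tested MADS-box genes, from the group of the Arabidopsis root factor ANR1, 1 fell and 5 did not pass, beside 7.93% of all tested genes that fell. The gene that fell, TraesCS2D02G325000, had a log2 fold change of -1.01 ± 0.26 (SE; edgeR adjusted p = 0.018). The search for TGA1 and TGA4 matched no gene name.

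Transporters and enzymes whose transcription nitrate sensing controls in Arabidopsis were counted last. All 8 NAR2-like genes and all 11 nitrate and nitrite reductase genes tested rose. Of 37 NRT2-like genes 23 were tested, of which 17 rose and 1 fell. The NRT2-like TraesCS6B02G044500 had 0.26, 0.39 and 0.05 TPM in 0N and passed the filter on its 2N libraries alone. The presence of such genes among those tested was tied to a high 2N level. Counts of rises over the lists are therefore a description. Over all lists, 51 of 120 tested genes rose and 14 fell, beside 7.57% and 7.93% of all tested genes. The median log2 fold change was 0.25 against 0.00 for all tested genes. Most of the rises were in the NRT2, NAR2 and reductase lists, with medians of 7.26, 3.45 and 3.94. The total thus does not describe the kinases, sensors or regulators.

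**Figure D4:**
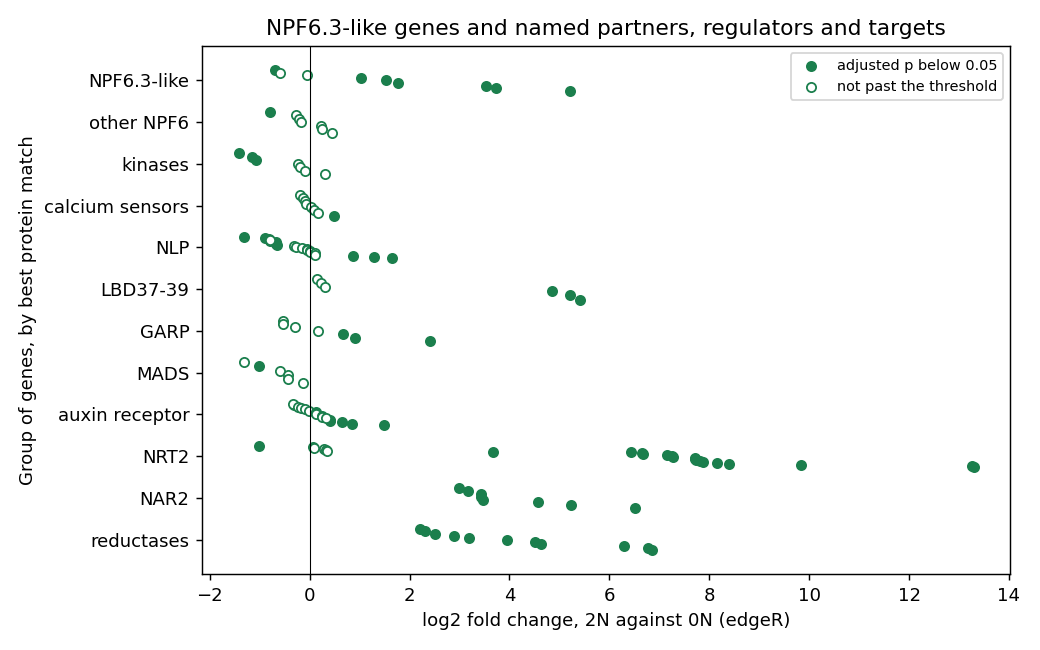
Log2 fold change of 2N against 0N (horizontal axis, edgeR) for the 9 tested NPF6.3-like genes and for the tested genes of each list of partners, regulators and targets (rows). Filled points passed an adjusted p of 0.05; the NPF6.3-like genes run from -0.70 to 5.20, the 3 filled kinase points are the CIPK23-like genes, and the NAR2 and reductase rows lie wholly above 0.

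The genes whose profile was most like that of TraesCS1B02G225000, which had both the highest mean level and the smallest p of the members, were found among 25416 expressed genes with an informative name. Likeness was the root mean square difference of centred log2 CPM (counts scaled to library size) over the 6 libraries, a description that mostly reads the shared difference between groups. The nearest gene, TraesCS1B02G388700, matches a phosphomethylethanolamine N-methyltransferase, an enzyme of phosphocholine synthesis, with a difference of 0.03. It stood at 16.6 ± 1.73 TPM in 0N and 53.4 ± 6.51 TPM in 2N (SD, n = 3). The next were TraesCS2B02G295200, matching a chloroplast envelope quinone oxidoreductase homolog, TraesCS2D02G085400, with a domain of unknown function, TraesCS2D02G155700, matching the kinase CIPK21, and TraesCS1D02G276100, matching the transcription factor TGAL5, at differences of 0.06 to 0.09.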

How the data were processed

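Per the labels' protocols, poly(A) RNA was enriched from total root RNA, random-primed and sequenced as circular single-stranded libraries. Per the submitters' processing notes, HISAT and Bowtie2 were used. Their versions, the counter, the annotation and the build: not given in the sources used here. As values, the authors deposited expected counts per gene, not normalized, of which 45.1% were not whole, and TPM. The column headers name them only as read count and TPM. TPM is scaled per gene length and to the same total per library. The 20 other value columns were not used. None of the 10 member identifiers occurs in the reference table of 155467 wheat genes (IWGSC CS RefSeq v2.1), so chromosomes are the codes inside the identifiers and no coordinates or sequences are given.

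Expected counts were rounded, filtered by edgeR's filterByExpr (minimum count 10, total 15), scaled by TMM and tested with edgeR's quasi-likelihood method (robust, 2-sided, adjusted over all tested genes). SE is the log2 fold change divided by the root of F and is approximate. Sums, shares and ratios used TPM with exact permutation tests. The fits were tested on 2 sets of simulated data. With dispersions on the fitted trend the share of false calls stayed under the nominal threshold of 0.05. With gene-wise dispersions it exceeded it with edgeR, DESeq2 and limma alike, so that calls close to the threshold are less certain than their adjusted p states. Named genes are all members, the 5 most alike genes (mean CPM at least 5) and, per list, the gene with the smallest p. Members and lists were chosen with earlier results of these data known. The software was Python 3.11.15 with matplotlib 3.10.9, and DESeq2 1.42.0, limma 3.58.1 and edgeR 4.0.16 in R 4.3.3.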

Additional observations from a re-analysis of the deposited data

How the results depend on the processing

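The settings tried were DESeq2 size factors, library totals, DESeq2's Wald test, limma-trend on log2(TPM + 1) and log2(TPM + 0.1), no filter, a minimum count of 30, the replicate block, and leaving out each library. Under all 14, 6 NPF6.3-like genes rose and 1 fell, and each of the 7 stayed past the threshold, with the largest adjusted p at 0.0091 (TraesCS1B02G224900, replicate block). The 2 uncalled genes stayed uncalled. The log2 fold change of TraesCS4B02G375800 ran from -0.28 to 0.12 over all settings, both ends coming from settings with a library left out. The change in the share of TraesCS1A02G211000 (0.49 percentage points) ran from -0.22 to 1.20 with a library left out. The change in the ratio of TraesCS1A02G210900 to TraesCS1D02G214200 was -0.38 with a pseudocount of 1 and ran from -0.40 to 0.46 with a library left out. The whole table's 4109 rises became 2465 (log2(TPM + 0.1)) and 2502 (log2(TPM + 1)) with limma-trend, and 2622 to 4285 with a library left out. Of the genes next to the pairs, 0 were called in the fit reported, 1 with library totals, 1 with no filter and 0 to 1 with a library left out. The cause was not tested. Same-numbered libraries deviated together with correlations of -0.005, -0.106 and 0.026, so the numbers were not taken as pairs; with the replicate block, 3454 genes rose and 3845 fell. The share of TraesCS4B02G371000 has no value without 0N replicate 1, its only library with reads. Few reads in 0N limit how well the size of the rises of the 1A and 1B first genes is known. The 3 libraries a group limit the permutation tests.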

Other observations

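The genes next to the 3 NPF6.3-like pairs were looked up by identifier number, 3 on each side, a choice made after the pairs had been seen. Of these 18 identifiers, 17 were in the table and tested. By edgeR's quasi-likelihood test on all libraries 0 of the 17 passed the threshold and 2 had an unadjusted p under 0.05. DESeq2, which gave an adjusted p for 16 of them, and limma-trend with either pseudocount also called 0. Single genes passed under other settings, all of them on 1B. TraesCS1B02G225200, matching an uncharacterized protein, was lower in 2N with adjusted p = 0.073 in the fit on all libraries, and passed with library totals (0.033), with no filter (0.038) and without 2N replicate 1 (0.038). TraesCS1B02G224800 was higher in 2N with adjusted p = 0.11, and passed without 2N replicate 2 (0.018). TraesCS1B02G225100, matching a glycine-rich cell wall structural protein, stood at 9.92, 0 and 0 TPM in 0N and at 1.38, 1.73 and 0.5 TPM in 2N. Its log2 fold change of -1.32 ± 1.82 (SE; edgeR adjusted p = 0.72) thus rested on 0N replicate 1. Without that library, 0N was at 0 and the gene was higher in 2N, with a log2 fold change of 6.29 (edgeR adjusted p = 0.012). On all libraries, limma-trend on log2(TPM + 0.1) gave 1.34 (limma-trend adjusted p = 0.74). The log2 fold changes of the other 16 ran from -0.60 to 0.62. On all 3 chromosomes the gene just before the pair matched the oxysterol-binding protein-related protein 2A, a lipid-binding protein, with log2 fold changes of 0.23 on 1A (TraesCS1A02G210800), 0.36 on 1B (TraesCS1B02G224800) and 0.09 on 1D (TraesCS1D02G214100). Flavin-containing monooxygenases, matching FMO GS-OX-like proteins, stood 3 places before the pair on all 3 chromosomes. The most abundant neighbour, TraesCS1A02G211200, matching a leucine-rich repeat extensin-like protein of the cell wall, stood at 123 ± 8.86 TPM in 0N and 99.9 ± 27.6 TPM in 2N (SD, n = 3).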
